A study of Mus musculus with 12 samples.

Results

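The collagen chain genes are the genes for the polypeptide chains of the collagens, taken here as every symbol made of Col, a number, the letter a and a number in both deposited count tables. There were 43 of them among 23337 genes, of which 11 encode fibrillar chains, 9 chains of basement membrane collagens, 9 chains of fibril-associated collagens (FACIT), 4 transmembrane chains and 10 chains of beaded, network and other collagens. RNA had been measured by 3′-end sequencing in peeled urothelium, an epithelium pulled off the layers below, of mice labelled Stag2-WT or Stag2-KO, with 3 libraries in each of 4 groups. All mice, WT included, had eaten TMX (taken to mean tamoxifen) in their diet for a week, and were taken 1 week or 1 month after it began. Stag2, on chromosome X, encodes a cohesin subunit, and cohesin is a ring that shapes chromatin loops and keeps sister chromatids together. The promoter that drives the recombinase and the age and sex of the animals were not given in the sources used here.

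Collagens are proteins of the extracellular matrix built from 3 chains wound into a triple helix. Fibrillar collagens form the tensile fibres of connective tissue, type IV collagen forms the sheet-like network of basement membranes under epithelia and around vessels and muscle, and FACIT chains sit on the surface of fibrils. Fibroblasts are the main source of fibrillar chains, whereas epithelial cells, endothelium and smooth muscle also make basement membrane chains, and the transmembrane collagen XVII is a part of the hemidesmosomes that anchor basal epithelial cells.

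Total counts per library ran from 5580961 to 9497088, so 3 counts, the limit that a count of 0 allows, were worth 0.311 to 0.613 CPM, the counts scaled to a common library size. Such limits cover counting error only. Levels below are CPM after TMM scaling within each time, and fold changes are KO against WT on the log2 scale. Stag2 was lower in all KO libraries than in any WT library of the same time, with 120.3, 108.2 and 154 CPM in WT against 76.2, 61.1 and 69.3 CPM in KO at 1 week, and with 59.2, 61.9 and 46.4 CPM in WT against 38.0, 36.4 and 19.3 CPM in KO at 1 month. At 1 week all KO libraries had Xist (6392 to 10406 counts, at most 13 in WT) and no more than 2 counts of the Y-linked Ddx3y, so genotype and these sex transcripts cannot be told apart at that time. At 1 month KO replicate 3 alone had Xist, with 7764 counts. KO replicate 3 of 1 week stood apart from the other libraries of its time, with Spearman correlations over 12754 genes of 0.730 to 0.833 against 0.896 to 0.986 among the other 5. All libraries of 1 week were sequenced in batch 1 and those of 1 month in batches 2 and 3, so time and batch cannot be told apart. Batch 3 held only KO replicate 3, with Xist, and WT replicate 3, with 11 counts of it. Within batch 3, genotype and the sex transcripts therefore cannot be told apart.

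At 1 week the collagen genes were on the whole higher in KO than in WT, but no single one passed the test over all genes. Of 43 collagens, 28 had enough counts to be tested. By edgeR's quasi-likelihood test 0 of 28 had an adjusted p under 0.05, against 0.0627% of all 12754 genes tested (0.0157% with KO higher, 0.047% with KO lower). An unadjusted p under 0.05 was reached by 15, all of them higher in KO, against 15.5% of all genes in either direction and 10.5% higher. DESeq2, the other tool run, called 12 collagens higher, against 5.4% of all genes, and 0 lower, against 2.12%. The log2 fold change was above 0 for 24 of the 28, against 51.5% of all genes, and its median was 1.32, against 0.02 over all genes. Every KO library lay above every WT library for 14 collagens and below for 0, against 14.1% and 12.5% of all genes. Without KO replicate 3, an alternative chosen after seeing the data, 16 lay above, against 20.8% of all genes. The heat map of the tested collagens shows this by library.

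**Figure D1:**
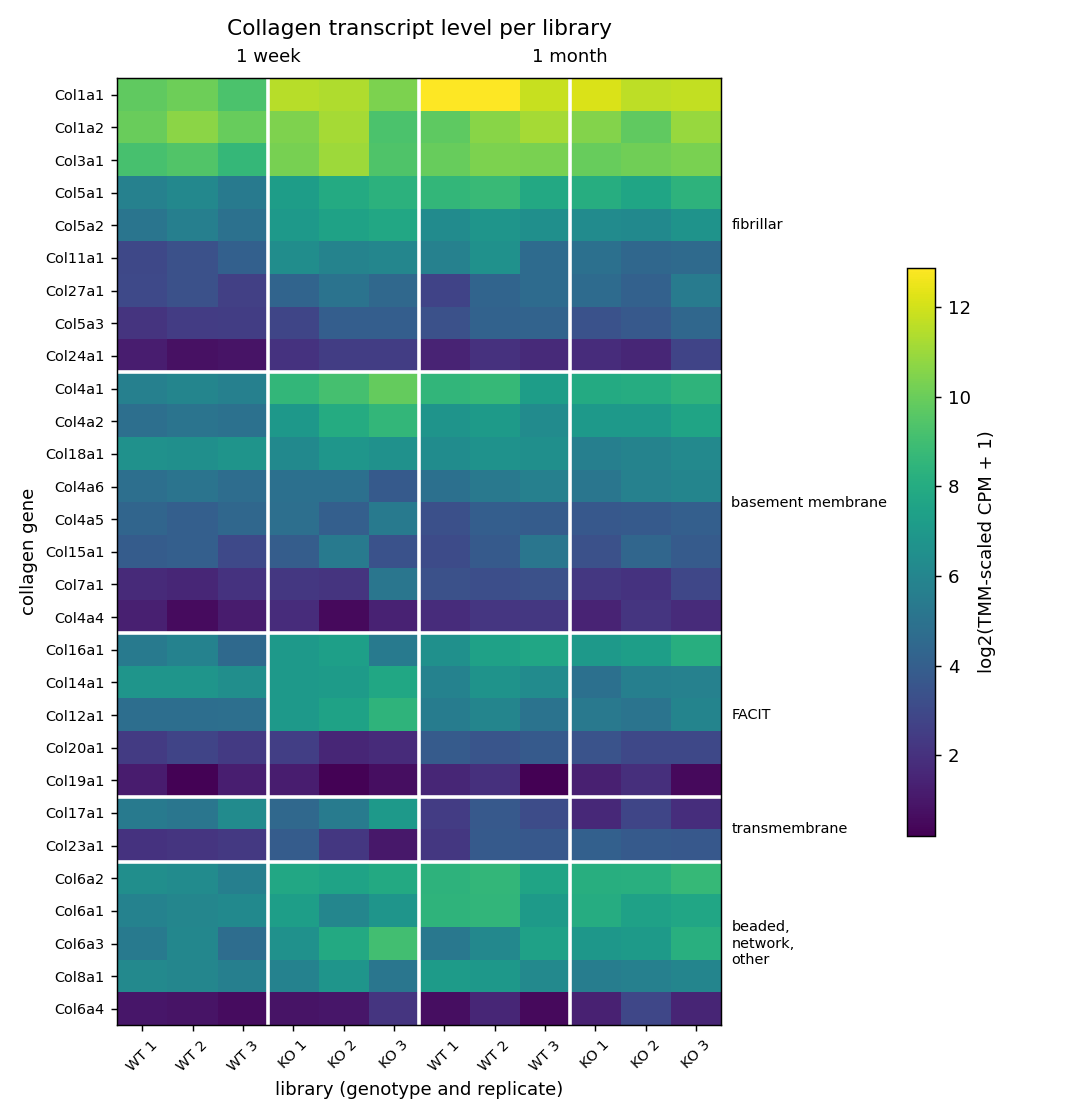
Levels of the tested collagen chain genes in each of the 12 libraries, one row per gene grouped by class and one column per library, with colour for log2(TMM-scaled CPM + 1). At 1 week, 14 genes had every KO library above every WT library, and at 1 month 0 did.

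The fibrillar chains had the highest class median at 1 week, 1.76 over 9 tested chains, with 9 above 0 and 7 without overlap between genotypes. Col1a1 and Col1a2 encode the chains of type I collagen, the main fibre of connective tissue. Col1a1 had 881, 1093 and 622 CPM in the WT libraries against 2914, 2655 and 1318 CPM in the KO libraries. Every KO library lay above the WT range, and the log2 fold change was 1.41 (standard error 0.41, adjusted p 0.182 by edgeR). Col1a2 had 1023, 1654 and 993 CPM in WT against 1401, 2312 and 632 CPM in KO. Here the groups overlapped, and the log2 fold change was 0.24 (standard error 0.50, adjusted p 0.826 by edgeR). Col3a1, the chain of type III collagen, which forms thin fibres with type I, had 593, 698 and 395 CPM in WT against 1234, 2078 and 676 CPM in KO. The groups overlapped for this gene too, with a log2 fold change of 1.24 (standard error 0.46, adjusted p 0.272 by edgeR).

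Type V and type XI chains are minor components that start fibrils and set their width. Col5a1 had 52.9, 69.8 and 41.7 CPM in WT against 152, 245 and 324 CPM in KO at 1 week. All KO libraries were above all WT libraries, with a log2 fold change of 2.13 (standard error 0.38, adjusted p 0.0941 by edgeR). The members Col11a1, Col5a2, Col5a3, Col24a1 and Col27a1 were chosen for mention after their values were seen. Col11a1 had 6.81, 9.22 and 16.2 CPM in WT against 85.1, 57.5 and 64.6 CPM in KO, again without overlap, and its log2 fold change of 2.68 (standard error 0.41, adjusted p 0.0927 by edgeR) was the highest of the fibrillar class. The log2 fold change was 2.25 for Col5a2 (edgeR adjusted p 0.0927) and 1.53 for Col5a3 (edgeR adjusted p 0.196). For Col24a1 and Col27a1, which encode further fibrillar chains, it was 2.10 (edgeR adjusted p 0.137) and 1.76 (edgeR adjusted p 0.122). None of these 4 overlapped between genotypes. The regions before the starts of Col11a1 and Col5a1 are printed to show the DNA upstream of 2 fibrillar chain genes that stood together at 1 week. They are the 250 bases before the annotated start in RefSeq GRCm38.p6, on the gene's strand, searched on both strands for the TATA box motif TATAAA, the CCAAT box, the GC box motif GGGCGG and the C-rich motif CCCTCCCC, with matches in capitals. Col11a1 lies on chromosome 3, with the window at chr3:114030290-114030539 on the plus strand, and Col5a1 on chromosome 2, with the window at chr2:27886175-27886424 on the plus strand.
Col11a1: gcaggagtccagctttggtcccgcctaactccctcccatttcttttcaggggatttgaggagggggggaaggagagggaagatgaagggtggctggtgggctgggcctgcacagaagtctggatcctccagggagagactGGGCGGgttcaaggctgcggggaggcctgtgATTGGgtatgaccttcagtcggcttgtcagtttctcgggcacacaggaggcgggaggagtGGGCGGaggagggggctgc
Col5a1: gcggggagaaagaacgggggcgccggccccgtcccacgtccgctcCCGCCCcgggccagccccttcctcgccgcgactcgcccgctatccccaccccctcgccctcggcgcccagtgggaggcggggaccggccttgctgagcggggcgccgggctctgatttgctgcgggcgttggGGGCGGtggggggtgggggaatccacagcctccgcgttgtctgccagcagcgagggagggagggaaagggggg

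Among the basement membrane chains the 2 common type IV chains stood furthest from WT at 1 week. Col4a1 had 52.3, 62.6 and 51.5 CPM in WT against 383, 563 and 942 CPM in KO. Each KO library had more than the highest WT library, and the log2 fold change of 3.50 (SE 0.41) was the highest of all collagens, with an edgeR adjusted p of 0.0506, just outside the threshold of 0.05. It passed in 6 of 12 alternatives, with adjusted p between 2.10e-12 and 0.507, and was 3.05 without KO replicate 3 and 3.74 without KO replicate 1, past the threshold in both. Col4a2 had 27.5, 32.8 and 29.2 CPM in WT against 123, 256 and 389 CPM in KO, also without overlap, with a log2 fold change of 3.10 (standard error 0.45, adjusted p 0.0927 by edgeR). The 2 genes lie head to head on chromosome 8 and their annotated first exons share 22 bases at chr8:11312805-11312826 (GRCm38). These shared bases are printed on the strand of each gene, with the motif GGGCGG or its reverse complement in capitals.
Col4a2 strand: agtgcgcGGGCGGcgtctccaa
Col4a1 strand: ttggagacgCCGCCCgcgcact

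The other basement membrane chains were closer to WT at 1 week. The class median over 8 tested chains was 0.73, and 3 had no overlap between genotypes. Col4a4, Col4a5 and Col15a1, chosen like Col19a1 after their values were seen, overlapped, with log2 fold changes of 0.52, 0.60 and 0.85. Col18a1, whose product carries the endostatin fragment, had 97.5, 92.1 and 109 CPM in WT against 72.4, 116 and 98.1 CPM in KO, with a log2 fold change of -0.06 (standard error 0.28, adjusted p 0.930 by edgeR). Col4a6, an X-linked type IV chain, had 27.5, 32.7 and 26.0 CPM in WT against 28.1, 28.5 and 12.7 CPM in KO, with a log2 fold change of -0.31 (standard error 0.37, adjusted p 0.701 by edgeR). For both genes the genotypes overlapped. Col7a1, chosen after its values were seen, encodes the anchoring fibril that ties the basement membrane to the stroma. It had 2.31, 1.98 and 3.11 CPM in WT against 3.78, 3.31 and 35.2 CPM in KO, so 1 library, KO replicate 3, held most of the difference. Its log2 fold change was 2.49 (standard error 0.96, adjusted p 0.286 by edgeR), and without that library it was 0.47.

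Of the 9 FACIT chains 5 were tested at 1 week, with a median log2 fold change of 0.64. Col12a1, which binds to type I fibrils, had 26.1, 26.3 and 27.5 CPM in WT against 129, 178 and 345 CPM in KO. The WT libraries lay close together and all KO libraries were far above them, with a log2 fold change of 3.03 (standard error 0.42, adjusted p 0.0844 by edgeR). Col14a1, a related fibril-binding chain, had 113, 113 and 87.5 CPM in WT against 131, 139.9 and 218 CPM in KO. It did not overlap either, but the log2 fold change was smaller, at 0.64 (standard error 0.31, adjusted p 0.366 by edgeR). Col16a1 had 41.4, 54.9 and 22.5 CPM in WT against 127, 164 and 40.3 CPM in KO and overlapped, with a log2 fold change of 1.48 (standard error 0.56, adjusted p 0.279 by edgeR). Col20a1 and Col19a1, at the low end of the class, overlapped and had log2 fold changes of -0.62 (standard error 0.49, adjusted p 0.560 by edgeR) and -0.42.

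The transmembrane chains had the lowest class median at 1 week, 0.57 over 2 tested chains, and overlapped in both. Col17a1, the hemidesmosome chain of basal epithelial cells, had 40.1, 34.7 and 79.4 CPM in WT against 21.5, 43.3 and 128 CPM in KO, with a log2 fold change of 0.32 (standard error 0.66, adjusted p 0.830 by edgeR). Col23a1 had a log2 fold change of 0.82 (standard error 0.81, adjusted p 0.636 by edgeR). The remaining transmembrane chains, Col13a1 and Col25a1, were too low to be tested, with totals of 28 and 31 counts over 12 libraries.

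Type VI collagen forms beaded filaments around cells, and its chains made up most of the remaining class. Col6a1 had 55.8, 63.7 and 73.8 CPM in WT against 156, 63.8 and 110.4 CPM in KO at 1 week and overlapped, with a log2 fold change of 0.77 (standard error 0.37, adjusted p 0.368 by edgeR). Col6a2 had 86.4, 79.2 and 51.0 CPM in WT against 225, 186 and 238 CPM in KO without overlap, with a log2 fold change of 1.58 (standard error 0.31, adjusted p 0.107 by edgeR). The third chain, Col6a3, had 41.7, 65.5 and 25.8 CPM in WT against 98.2, 236 and 533 CPM in KO. All its KO libraries lay above WT, and the log2 fold change was 2.70 (standard error 0.66, adjusted p 0.139 by edgeR). Without KO replicate 3 it was 1.89 (adjusted p 0.0801 by edgeR). Col8a1, a short-chain network collagen of vessels, had 72.0, 63.0 and 49.7 CPM in WT against 55.7, 112 and 34.8 CPM in KO, which overlapped, with a log2 fold change of 0.13 (standard error 0.44, adjusted p 0.900 by edgeR).

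**Figure D2:**
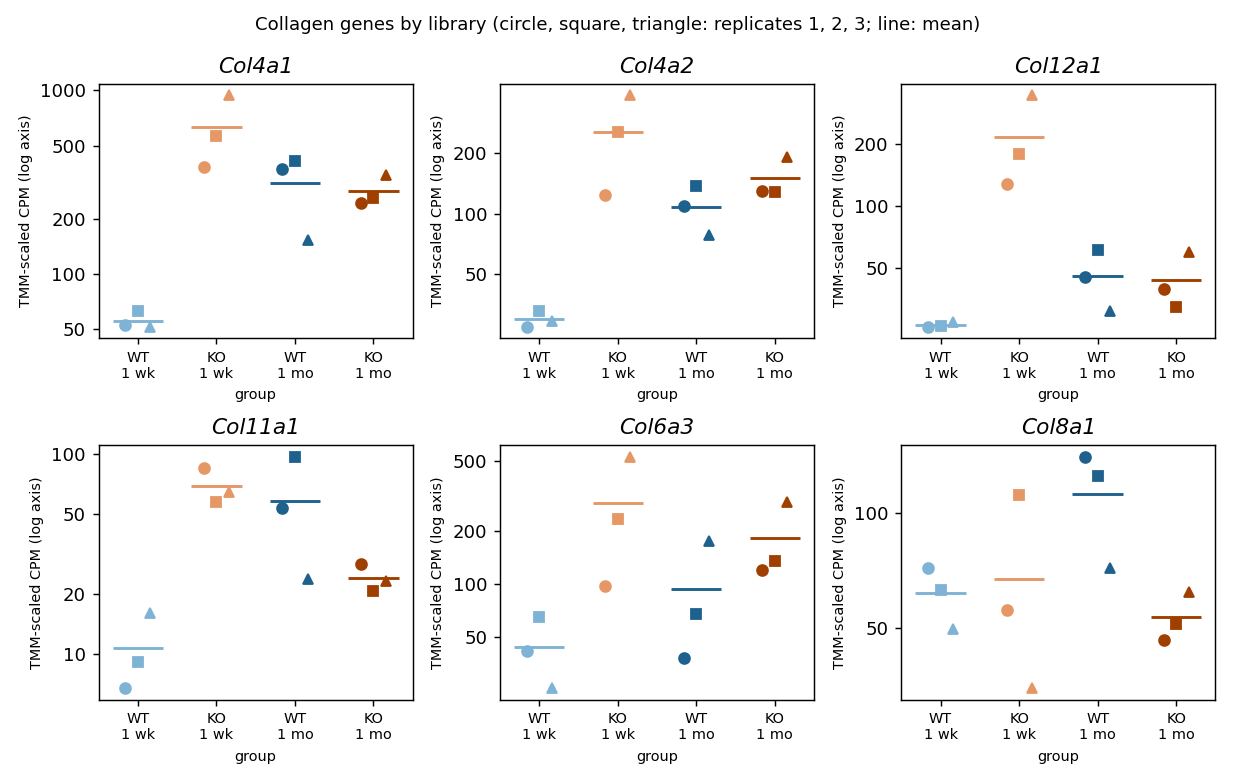
Levels of Col4a1, Col4a2, Col12a1, Col11a1, Col6a3 and Col8a1 in TMM-scaled CPM on a log axis by group, with one point per library (circle, square and triangle for replicates 1, 2 and 3) and a line at the group mean. The KO libraries of 1 week lie above all WT libraries of 1 week for the first 5 genes, and those of 1 month lie below the WT libraries for Col8a1.

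Markers of stromal cell types were higher together with the collagens at 1 week. Of 14 fibroblast markers 0 were called by edgeR, 8 had all KO libraries above all WT libraries, and the median log2 fold change was 1.47. Over all genes, 0.0627% were called, KO lay above WT without overlap for 14.1% and below for 12.5%, and the median was 0.02. Their summed level ran from 2709 to 3587 CPM in WT and from 6038 to 10313 CPM in KO. Within that list Dcn, a proteoglycan abundant in fibroblasts, had a log2 fold change of 0.10, and Sparc, a collagen-binding matrix protein that is also on the basement membrane partner list, one of 2.22. Sparc alone had 851, 809 and 791 CPM in WT against 2712, 2429 and 6272 CPM in KO, a large part of the summed level. Smooth muscle markers (8 tested, 0 called, 3 without overlap, median 1.51) summed to 146 to 331 CPM in WT against 398 to 1133 CPM in KO. Endothelial markers (8 tested, 0 called, 5 without overlap, median 1.04) summed to 226 to 263 CPM in WT against 393 to 819.6 CPM in KO. Leukocyte markers (8 of 10 tested, 0 called, 4 without overlap, median 0.94) summed to 180.1 to 299 CPM in WT against 338 to 669 CPM in KO. Schwann cell markers (5 tested, 0 called, 2 without overlap) had a median of 0.72. The 17 urothelial markers had a median of -0.26, with 0 called, and sums of 13999 to 17007 CPM in WT against 12387 to 15928 CPM in KO. No marker of these lists was at 0 in all libraries. Their part in the collagen values was not tested, and in bulk samples a change in cell number and a change in RNA per cell cannot be told apart.

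**Figure D3:**
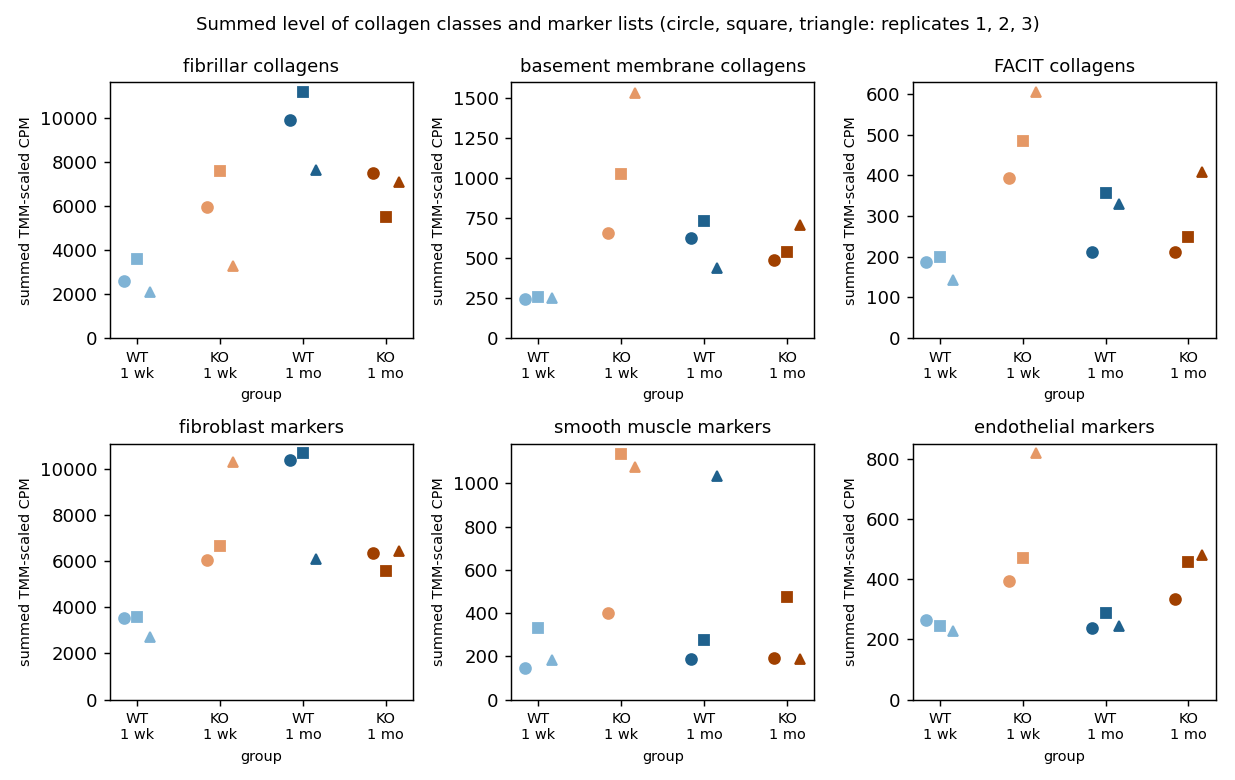
Summed TMM-scaled CPM of 3 collagen classes and 3 marker lists by group, with one point per library (circle, square and triangle for replicates 1, 2 and 3). At 1 week the basement membrane chains summed to 243 to 254 in WT and 656 to 1531 in KO, while the fibrillar chains overlapped between genotypes.

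The summed level of all 43 collagens at 1 week was 3331, 4355 and 2786 CPM in the WT libraries against 7564, 9739.5 and 6468 CPM in the KO libraries. All KO libraries lay above all WT libraries, and KO replicate 3, which stood apart, was the lowest of the KO libraries. The fibrillar chains summed to 2601, 3589 and 2109 CPM in WT against 5942, 7582 and 3279.9 CPM in KO and overlapped through that library. The basement membrane chains summed to 243, 254 and 248 CPM in WT against 656, 1025 and 1531 CPM in KO, and there KO replicate 3 was the highest. At 1 month the sums were 11618, 13225 and 8995 CPM in WT against 8935, 6985 and 9206 CPM in KO, and the groups overlapped.

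At 1 month 1 collagen, Col6a3, was called, higher in KO, and the median of the family sat near WT. Of 29 tested collagens, 1 was called higher by edgeR, against 0.997% of all 12139 genes, and 0 lower, against 1.22% (2.22% in either direction). In KO 3 were higher and 7 lower at an unadjusted p under 0.05 by edgeR, against 21.5% of all genes in either direction and 11.1% higher. The median log2 fold change was -0.09, against -0.01 over all genes, with 10 above 0, against 49.6% of all genes, and 19 below. All KO libraries lay below all WT libraries for 5 collagens, against 7.58% of all genes, and above for 0, against 5.72%. By DESeq2, 1 was higher, against 4% of all genes, and 2 were lower, Col11a1 and Col8a1, against 2.97%. Scaling by library size alone shifted the median of all genes by 0.22 and that of the collagens to 0.13, with 18 above 0 and 11 below. The tally also turned without WT replicate 2 (16 above, 12 below) and without KO replicate 1 (16 above, 13 below).

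Col6a3 had 38.4, 68.2 and 177 CPM in WT against 121, 136 and 296 CPM in KO at 1 month. WT replicate 3, of batch 3, was above KO replicates 1 and 2, so the groups overlapped, while within each batch KO was higher. The log2 fold change was 1.09 (standard error 0.24, adjusted p 0.0379 by edgeR), with a log2 difference of 1.32 in batch 2 and 0.74 in batch 3. It passed in 9 of 14 alternatives, with adjusted p between 6.79e-05 and 0.692, and was lost without the batch covariate (adjusted p 0.692) and without WT replicate 1 (0.142), WT replicate 2 (0.114), KO replicate 1 (0.0788) or KO replicate 2 (0.109). It passed without KO replicate 3, the library with Xist. The 250 bases before its start, chr1:90843972-90844221 on the minus strand, are printed as the upstream DNA of the 1 collagen called. They hold none of the 4 motifs searched, so no letter is in capitals.
Col6a3: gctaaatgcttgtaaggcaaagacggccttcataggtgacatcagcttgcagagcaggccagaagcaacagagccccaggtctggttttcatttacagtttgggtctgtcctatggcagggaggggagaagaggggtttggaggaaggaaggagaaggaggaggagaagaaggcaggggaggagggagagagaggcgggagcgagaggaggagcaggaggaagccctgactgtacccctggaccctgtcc

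Col8a1 had 141, 125 and 71.6 CPM in WT against 46.5, 51.3 and 62.1 CPM in KO at 1 month. Every KO library lay below every WT library, and the log2 fold change was -1.04 (standard error 0.26, adjusted p 0.0536 by edgeR), outside the threshold. The log2 difference was -1.44 in batch 2 and -0.20 in batch 3. Its upstream window, chr16:57754738-57754987 on the minus strand, is printed for comparison with Col6a3, with GGGCGG and CCCTCCCC, on either strand, in capitals.
Col8a1: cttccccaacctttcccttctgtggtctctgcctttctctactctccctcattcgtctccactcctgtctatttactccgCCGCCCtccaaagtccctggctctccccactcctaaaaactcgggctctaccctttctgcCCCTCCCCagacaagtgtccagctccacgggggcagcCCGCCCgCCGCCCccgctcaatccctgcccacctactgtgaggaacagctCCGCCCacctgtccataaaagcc

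The 3 chains with the highest log2 fold changes at 1 week had other values at 1 month. Col4a1 had 374, 410.2 and 153 CPM in WT against 243, 260.1 and 344 CPM in KO, which overlapped, with a log2 fold change of -0.06 (standard error 0.33, adjusted p 0.938 by edgeR). Col4a2 had 109, 137 and 78.6 CPM in WT against 129, 128 and 192 CPM in KO, with a log2 fold change of 0.47 (standard error 0.26, adjusted p 0.312 by edgeR). Col12a1 had 45.2, 61.4 and 31.2 CPM in WT against 39.6, 32.4 and 60.0 CPM in KO, with a log2 fold change of -0.07 (standard error 0.30, adjusted p 0.911 by edgeR). These 3 chains of basement membrane and fibril surface all overlapped between genotypes.

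Among the fibrillar chains the class median at 1 month was -0.11 over 9 tested chains. Col1a1 had 7539, 7531 and 3623 CPM in WT against 4596, 3181 and 3318 CPM in KO, with a log2 fold change of -0.68 (standard error 0.29, adjusted p 0.204 by edgeR). Col11a1 had 53.7, 96.8 and 23.9 CPM in WT against 28.1, 20.6 and 23.1 CPM in KO, and the groups overlapped through WT replicate 3. Its log2 fold change was -1.12 (standard error 0.35, adjusted p 0.105 by edgeR), with log2 differences of -1.57 in batch 2 and -0.04 in batch 3. The log2 fold change was -0.11 for Col1a2 (edgeR adjusted p 0.858), -0.09 for Col3a1 (edgeR adjusted p 0.845) and -0.36 for Col5a1 (edgeR adjusted p 0.487).

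Besides Col8a1, 4 tested collagens had every KO library below every WT library at 1 month, and none of them passed the test. Col14a1 had 56.3, 105 and 78.8 CPM in WT against 28.1, 49.7 and 53.0 CPM in KO, with a log2 fold change of -0.89 (standard error 0.29, adjusted p 0.109 by edgeR). Col18a1 had 81.6, 101 and 91.5 CPM in WT against 50.8, 56.9 and 72.3 CPM in KO, with a log2 fold change of -0.62 (standard error 0.21, adjusted p 0.118 by edgeR). Col7a1 had 9.25, 8.46 and 9.33 CPM in WT against 3.82, 3.20 and 6.54 CPM in KO, with a log2 fold change of -1.04 (standard error 0.35, adjusted p 0.121 by edgeR). Col7a1 was named after its values were seen. The fourth was Col20a1, with a log2 fold change of -0.66 (edgeR adjusted p 0.239). The other tested FACIT chains overlapped, with -0.07 for Col12a1, 0.22 for Col16a1 and -0.00 for Col19a1. Col17a1 had 4.52, 12.4 and 7.95 CPM in WT against 2.22, 6.23 and 2.59 CPM in KO and overlapped, with a log2 fold change of -1.21 (standard error 0.48, adjusted p 0.174 by edgeR).

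**Figure D4:**
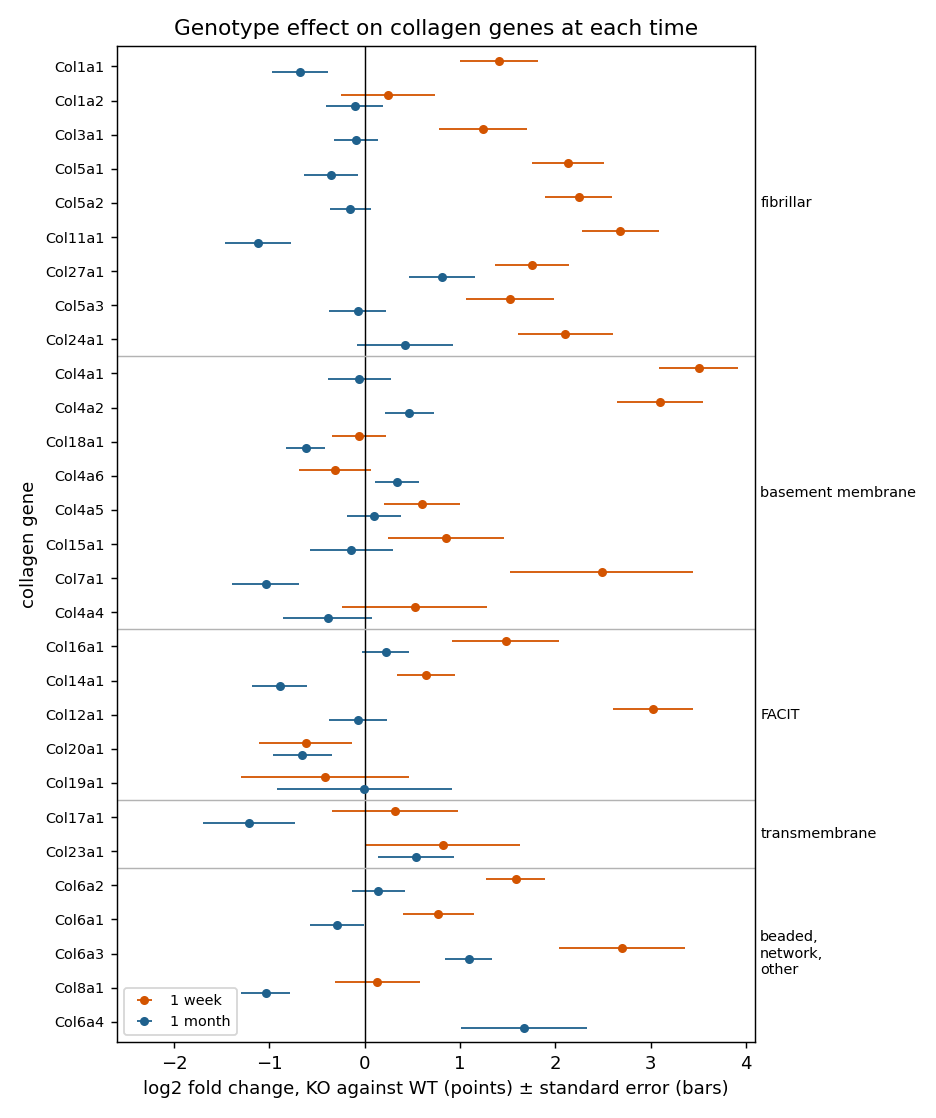
Log2 fold change of KO against WT, with its standard error, for each tested collagen chain gene at 1 week and at 1 month. The median was 1.32 at 1 week and -0.09 at 1 month.

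The genotype effects of the 2 times were compared in a fit of all 12 libraries. By edgeR 0 of 29 collagens passed, as did 0% of 13122 genes, and the smallest adjusted p was 0.0879. An unadjusted p under 0.05 was found for 13, all with a lower effect at 1 month, against 12% of all genes in that direction and 19.9% in either. DESeq2 called 10, all lower at 1 month, against 4.67% of all genes. The difference was below 0 for 26 of 29 collagens, against 51.7% of all genes, with a median of -1.32, against -0.04. Of 28 collagens tested at both times, 16 were above 0 at 1 week and below 0 at 1 month, against 30.1% of 11919 genes. The difference was -3.55 (standard error 0.59, adjusted p 0.0879 by edgeR) for Col4a1, -3.09 (standard error 0.58, adjusted p 0.0879 by edgeR) for Col12a1 and -3.78 (standard error 0.61, adjusted p 0.0879 by edgeR) for Col11a1. Since time and batch cannot be told apart, these differences are also differences between batches. The sex transcripts differ too, since all KO libraries of 1 week had Xist but only KO replicate 3 of 1 month did. The part of the sex transcripts in these differences was not tested.

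Chains of one collagen type are made for one triple helix, so their ratio was followed by library. Reads come from the 3′ end of each transcript and were not divided by length, so a ratio compares libraries and gives no amount of chains. The ratio of Col1a1 to Col1a2 counts was 0.862, 0.661 and 0.626 in WT against 2.08, 1.15 and 2.08 in KO at 1 week. All KO ratios lay above WT, and the two-sided exact permutation p was 0.1, the smallest that 3 against 3 libraries can give, or 0.3 adjusted over 6 tests. At 1 month it was 8.95, 4.69 and 1.55 in WT against 3.07, 3.57 and 1.68 in KO and overlapped (exact permutation p 0.5). The ratio of Col4a1 to Col4a2 was 1.90, 1.91 and 1.76 in WT against 3.10, 2.20 and 2.43 in KO at 1 week, again without overlap (exact permutation p 0.1, adjusted 0.3). At 1 month it was 3.43, 2.99 and 1.94 in WT against 1.88, 2.03 and 1.79 in KO (exact permutation p 0.2). The ratio of Col6a3 to Col6a1 was 0.747, 1.03 and 0.350 in WT against 0.629, 3.70 and 4.83 in KO at 1 week, and 0.109, 0.180 and 1.29 in WT against 0.458, 0.768 and 1.41 in KO at 1 month. It overlapped at both times (exact permutation p 0.3 at each). These permutations take no account of batch. As 0.1 is the smallest p they can give, none could pass the threshold, and no conclusion is drawn from their p-values. The tested ratios were chosen from a longer list after their values were seen. The adjustment over 6 tests does not cover that choice. Within batches at 1 month, the log2 difference of KO from WT was -0.97 in batch 2 and 0.12 in batch 3 for Col1a1 to Col1a2, -0.72 and -0.12 for Col4a1 to Col4a2, and 2.08 and 0.13 for Col6a3 to Col6a1. For Col4a1 to Col4a2 each KO library was below, and for Col6a3 to Col6a1 above, each WT library of its own batch, whereas for Col1a1 to Col1a2 the batches differed in sign. Batch 3 holds 1 library of each genotype, of which only the KO library had Xist.

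**Figure D5:**
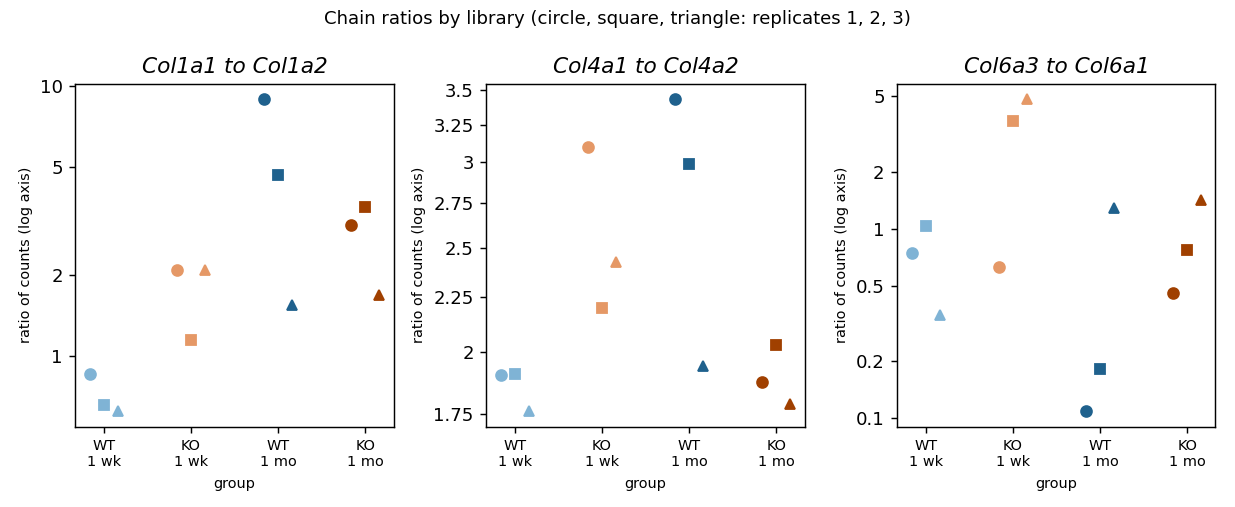
Ratio of counts of Col1a1 to Col1a2, Col4a1 to Col4a2 and Col6a3 to Col6a1 in each library on a log axis, by group (circle, square and triangle for replicates 1, 2 and 3). For the first 2 ratios the KO libraries of 1 week lie above the WT libraries of 1 week.

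Enzymes that modify, cut and crosslink collagen chains were examined as a list of 30. At 1 week 26 were tested, 0 were called by edgeR, 12 had no overlap with KO higher, and the median log2 fold change was 1.12. Over all genes the shares were 0.0627% and 14.1%. Lox, the main crosslinking oxidase, was named for its value. It had 1.34, 1.98 and 1.14 CPM in WT against 11.1, 23.6 and 13.3 CPM in KO, with a log2 fold change of 3.42 (standard error 0.49, adjusted p 0.0856 by edgeR). Its WT values rest on 11 to 17 counts, and it was too low to be tested at 1 month. At 1 month 24 were tested with a median of 0.21, and 1 was called, against 2.22% of all genes. That gene, Crtap, a partner of the prolyl 3-hydroxylase, rose in KO, with 3.15, 4.86 and 31.5 CPM in WT against 10.2, 11.8 and 56.0 CPM in KO and a log2 fold change of 1.19 (standard error 0.28, adjusted p 0.0437 by edgeR). Its groups overlapped, with log2 differences of 1.42 in batch 2 and 0.82 in batch 3. The most abundant of the list were Pcolce, an enhancer of procollagen cutting (log2 fold change 1.50 at 1 week and -0.45 at 1 month), the hydroxylase subunit P4hb (-0.04 and 0.53) and the galactosyltransferase Glt25d1 (0.03 and -0.47), of which none passed.

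Collagen is sensed by integrins and receptor kinases. Of 10 receptors 9 were tested at 1 week and 8 at 1 month, with 0 called by edgeR at either time, against 0.0627% and 2.22% of all genes, and median log2 fold changes of 0.54 and 0.16. At 1 week 3 had no overlap with KO higher, against 14.1% of all genes. The most abundant were the integrin Itgb1 (0.54 at 1 week and 0.55 at 1 month), the receptor kinase Ddr2 (1.10 and -0.36) and its relative Ddr1 (-0.66 and 0.40). The 16 partners of the hemidesmosome and basement membrane had 0 called at either time, with medians of 0.81 at 1 week and -0.15 at 1 month. At 1 week 7 had no overlap with KO higher and 1 with KO lower, against 14.1% and 12.5% of all genes. Sparc (2.22 and -0.90), the cytolinker Plec (0.84 and -0.10) and the hemidesmosome plakin Dst (-0.05 and -0.30) were the most abundant. Nid1, a linker of laminin and type IV collagen named for its value, had a log2 fold change of 3.11 (standard error 0.66, adjusted p 0.115 by edgeR) at 1 week.

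At 1 month edgeR called 2.22% of all genes, 0.997% higher and 1.22% lower in KO, and the median log2 fold change over all genes was -0.01. Of 14 fibroblast markers, Pdgfrb, a receptor of mural cells and fibroblasts, rose by a log2 fold change of 1.30 (standard error 0.24, adjusted p 0.0218 by edgeR). The matrix protein gene Fbln2 fell, with -1.34 (standard error 0.25, adjusted p 0.0212 by edgeR). The median of the list was 0.02, with sums of 6077 to 10689 CPM in WT against 5556 to 6434 CPM in KO. A large part of these sums was Sparc, with 6016, 5920 and 2596 CPM in WT against 2997, 1917 and 2378 CPM in KO. Of 8 tested leukocyte markers all 8 had a log2 fold change below 0, and 4 were called lower, Cd74, C1qa, C1qb and Csf1r. The median of that list was -1.06, with sums of 721 to 1415 CPM in WT against 356 to 445 CPM in KO. Of 8 endothelial markers 1 was called, Plvap, which rose, with a log2 fold change of 1.30 (standard error 0.27, adjusted p 0.0302 by edgeR), and the median was 0.50. Of 8 smooth muscle markers 1 was called, Smtn, which fell, with -0.99 (standard error 0.20, adjusted p 0.0272 by edgeR). The median of that list was -0.44, and Acta2 and Myh11, the 2 markers above 0, had 0.29 and 0.11. Both differed in sign between batches, with 1.24 in batch 2 and -2.23 in batch 3 for Acta2, and 1.03 and -1.97 for Myh11. The list summed to 187, 274 and 1034 CPM in WT against 192, 476 and 185 CPM in KO, so WT replicate 3 stood apart. Of 17 urothelial markers 1 was called, the umbrella cell keratin Krt20, which fell, with -1.76 (standard error 0.25, adjusted p 0.00601 by edgeR). The median of the urothelial list was -0.36, with 5 markers above 0 and 12 below. Among those above 0, the basal keratin Krt5 had 1.44 (standard error 0.34, adjusted p 0.0505 by edgeR) and no overlap between genotypes. The 5 Schwann cell markers had 0 called and a median of 0.02. At 1 month the part of these cells in the collagen values was not tested.

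The 14 collagens tested at neither time had totals of 0 to 38 counts over 12 libraries and at most 13 in 1 library. Col6a4 was tested at 1 month only, with a log2 fold change of 1.67 (standard error 0.66, adjusted p 0.174 by edgeR), which was 2.37 without WT replicate 2 and 0.90 without KO replicate 2. The untested genes were Col2a1, Col11a2, Col9a1, Col9a2, Col9a3 and Col10a1, known from cartilage, and Col4a3, Col6a5, Col6a6, Col8a2, Col13a1, Col22a1, Col25a1 and Col28a1. Col10a1 had 0 counts in every library, which allows up to 0.311 to 0.613 CPM per library.

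All 43 genes were placed on GRCm38 and 35 had a promoter window in RefSeq. Besides Col4a1 and Col4a2, the pairs Col4a3 and Col4a4 (71 bases apart, chromosome 1) and Col4a6 and Col4a5 (1308 bases apart, chromosome X) lie head to head. Over 38 windows of 250 bases before the starts of collagen genes, searched on both strands, GGGCGG was in 22 (57.9%), against 32.7% of all 32851 windows, and CCCTCCCC in 10 (26.3%), against 9.69%. CCAAT was in 13 (34.2%), against 33.8%, and TATAAA in 5 (13.2%), against 12.4%. A match is a description of these letters and not of binding.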

How the data were processed

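RNA of peeled urothelium was sequenced from the 3′ end (QuantSeq forward kit, oligo-dT primed, sense strand) in 12 libraries. The deposited tables give raw counts per gene. The authors' processing used Bowtie, TopHat, HTSeq and DESeq2 on mm10, per the submitters' processing notes, without versions, and HTSeq was strand-aware, per the labels' protocols. Groups came from the labels' genotype and time. Replicate numbers follow accession order and pair no animals. The title and the library name of WT replicate 3 at 1 month carry different animal numbers, and its column was matched by library name. No pair of replicates agreed within sampling noise.

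The counts as deposited were tested with edgeR 4.0.16 (R 4.3.3, quasi-likelihood with robust dispersions, TMM scaling, default low-count filter), two-sided. P-values were adjusted by Benjamini-Hochberg across every tested gene, and 0.05 was the threshold. The 6 libraries of a time were fitted together, adding batch at 1 month, and an interaction term over all 12 libraries, also with batch, gave the difference between times. Standard errors are the absolute log2 fold change over the square root of F. Within-batch differences are of log2 CPM with a prior count of 2. Biological coefficients of variation were 44.4% (1 week), 24.2% (1 month) and 37.7% (joint fit). Chain ratios are of counts. They were chosen, with their two-sided exact permutation test, after their values were seen. On simulated counts with 200 genes changed 4-fold, edgeR recovered 12.5% with 2 false calls at 1 week (12754 genes), 94.5% with 11 at 1 month (12139 genes) and 1.5% with 0 in the interaction (13122 genes).

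Named are collagens called in any test, the 4 most abundant of each class, called partners or otherwise the 3 most abundant of each list, and others said to be chosen after their values were seen. The collagens and all gene lists were chosen with earlier results of these data known. Of the 30 enzymes, 6 were matched by older symbols. Gene positions come from GENCODE M21 (GRCm38) and promoter windows from RefSeq GRCm38.p6. Alternatives were DESeq2 1.42.0, other scaling, other filters, dispersions without the robust option, no batch covariate, batch 2 alone and leaving out each library.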

Additional observations from a re-analysis of the deposited data

Results flagged for a closer look

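Col14a1 and Col7a1 were flagged because their genotypes did not overlap at either time and lay in opposite directions. Every KO library was above WT at 1 week and below WT at 1 month. This rule was applied to the collagens only. The share of all genes that meet it was not computed, so the pattern is not shown to be particular to these genes. The genotype effect at 1 month minus that at 1 week was -1.52 on the log2 scale for Col14a1 (edgeR unadjusted p 0.00701, adjusted p 0.141) and -3.52 for Col7a1 (edgeR unadjusted p 0.00804, adjusted p 0.148). Neither difference passed the threshold over all genes, and time and batch cannot be told apart. The KO libraries with Xist, all of them at 1 week and only replicate 3 at 1 month, differed between the times too. For Col7a1 the value of 1 week rests largely on KO replicate 3.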

How the results depend on the processing

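No paired analysis was possible because replicate numbers were given in accession order and pair no animals. At 1 week the 0 collagens called by edgeR became 1 with library size alone and 5 without a filter on low counts. They became 1 without robust dispersions and 12 by DESeq2. Over all genes the 8 calls became 8, 62, 11 and 957 in these settings. With single libraries left out 0 to 9 collagens were called. There were 9 without KO replicate 3, against 320 of all genes, and 3 without KO replicate 1, against 56 of all genes. The calls given below for 1 month and between times have no count over all genes beside them. They are not a result about the collagens alone. The median of 1.32 became 1.08 without the filter and 1.04 to 1.49 with single libraries left out. At 1 month the 1 call became 5 without the filter, 3 by DESeq2, 0 without the batch covariate, 5 in batch 2 alone and 0 to 7 with single libraries left out, with 7 without WT replicate 3, 6 without KO replicate 3 and 0 without any 1 of replicates 1 and 2 of either genotype. The median of -0.09 became 0.13 with library size alone and -0.26 to 0.09 with single libraries left out. In the difference between times the 0 calls became 6 without the filter, 10 by DESeq2 and 0 to 8 with single libraries left out, with 6, 7 and 8 without KO replicate 1, 2 or 3 of 1 week and 2 without replicate 3 of either genotype at 1 month. Without KO replicate 3, an alternative chosen after seeing the data, 1 collagen, Col23a1, had all KO libraries above all WT libraries at 1 month, against 0 with it. Over all genes the shares were 9.05% without that library and 5.72% with it. The causes were not tested. Of the gene results with an unadjusted p under 0.05 in edgeR, 15 at 1 week, 10 at 1 month and 13 in the difference between times, 0 reversed under any alternative run. They were picked by that p in the same libraries, so a reversal was unlikely from the start and no conclusion is drawn. At 1 week few 4-fold changes could be called at this spread between libraries, and collagens with at most 13 counts in a library were not detectable as different.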
